A study of Mus musculus with 3 samples.

Results

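A set of 9 genes that govern the G1 phase of the cell cycle was followed in single bone marrow cells of C57BL/6 mice before and after bacterial challenge. They are the D-type cyclins Ccnd1, Ccnd2 and Ccnd3, the cyclin-dependent kinases Cdk4 and Cdk6, the Cip/Kip inhibitors Cdkn1a (p21), Cdkn1b (p27) and Cdkn1c (p57), and the INK4 inhibitor Cdkn2c (p18). They were taken by symbol, and all 9 are among the 31053 genes in each count file. The cells had been enriched for cKit+, the receptor that marks blood stem and progenitor cells, and were captured as 3 droplet libraries, 1 per group. The first library came from mice at steady state (unchallenged), another from mice challenged once with E. coli and labelled 24 h, and the last from mice challenged 2 times with E. coli and labelled 48 h. The groups share strain, tissue, enrichment and library kit. The labels give no age, no sex, no number of pooled animals, and not whether the times count from the first or the last challenge. The number of challenges and the time therefore cannot be told apart.

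D-type cyclins bind CDK4 or CDK6, and the complexes phosphorylate the retinoblastoma protein, which frees E2F factors to switch on the genes of DNA replication. INK4 proteins such as p18 bind CDK4 and CDK6 and keep the cyclin from joining them. Cip/Kip proteins bind cyclin and kinase together and inhibit mainly CDK2 complexes. In blood, p57 and p27 are known for holding stem cells at rest, CDK6 for the exit of stem cells from rest and for restraining myeloid maturation, and p21 as a target of p53.

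With 1 library per group there is no replicate check, no test across samples was possible, and every interval below covers counting error only. Totals were 119646078 UMIs (counted mRNA molecules) in 9684 cell barcodes for the unchallenged library, 135079828 in 9060 for the library challenged once and 95522747 in 8923 for the library challenged 2 times. After filtering and removal of doublet calls, 8796, 8356 and 8286 cells remained in that order, which is kept throughout. Between 103 and 125 barcodes were shared by each pair of libraries. The source name calls the cells bone marrow neutrophils, but clustering gave many kinds of cells. HSPC-like cells (stem and early progenitor cells) had all 12 fixed markers in cluster 4, led by Hlf, Adgrl4, Ly6a and Meis1. Cluster 12 had 6 of 12 and was led by Flt3, Dntt and Ly6d. It did not reach 2-fold for Hlf, Mecom, Meis1, Angpt1, Mycn and Adgrg1. Its top 10 genes also held Mpeg1, Il12a and Ly86, so the class name fits cluster 4 better than cluster 12. HSPC-like cells numbered 781, 1163 and 873 with medians of 8790, 12803 and 8506 UMIs. Neutrophil progenitor-like cells had all 8 markers, among them Elane, Mpo, Prtn3 and Ms4a3, and numbered 606, 1079 and 1661 cells with medians of 18726, 26570 and 14244 UMIs. Cluster make-up differed between libraries: cluster 4 held 72.1%, 68.1% and 49.6% of the HSPC-like cells, so that cluster 12 was the larger in the library challenged 2 times, and cluster 1 held 63.7%, 77.8% and 55.0% of the neutrophil progenitor-like cells, with cluster 9 as the rest. Median mitochondrial shares in the HSPC-like cells were 2.93%, 2.92% and 4.63%. The part of depth, cluster make-up and mitochondrial share in the results was not tested. Levels within the clusters of both classes are given beside those of the class, except where a gene was too rare.

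Levels are UMIs per 1000000 UMIs of the class (CPM) and are compared only within a gene, because tags at the 3' end are not scaled between genes. A gene was measured in a comparison when both libraries together gave 100 UMIs or more, and it was called higher or lower when its log2 ratio, after adding 10 CPM to both sides, reached 1.5-fold. The share of all measured genes called in the same direction is the background for a call. It is not given for calls in single clusters or under alternative settings. It is also not given for mature neutrophil-like, monocyte-like and dendritic cell-like cells. Counts of classes in which a gene was higher or lower have no such background either. All classes come from the same 3 libraries, so they are not repeats of a condition.

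Promoter windows from RefSeq (GRCm38.p6, 250 bases before to 50 after the start site) were found for 6 of the 9 genes, in 9 windows. Of these, 3 are shown, for the kinase and the inhibitors that are called in the HSPC-like cells below. Capitals mark motifs found on either strand by exact match: the E-box CACGTG, the core bound by Myc family factors, the GC box GGGCGG and the CCAAT box CCAAT, with their complements.
Cdk4, chr10:127063285-127063584, plus strand: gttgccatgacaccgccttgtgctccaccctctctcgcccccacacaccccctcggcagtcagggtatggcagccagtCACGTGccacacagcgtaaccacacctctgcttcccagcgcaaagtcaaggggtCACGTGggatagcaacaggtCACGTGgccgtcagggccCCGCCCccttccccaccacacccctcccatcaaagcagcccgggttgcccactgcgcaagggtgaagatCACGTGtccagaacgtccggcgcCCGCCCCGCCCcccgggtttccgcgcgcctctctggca
Cdkn1a, chr17:29093519-29093818, plus strand: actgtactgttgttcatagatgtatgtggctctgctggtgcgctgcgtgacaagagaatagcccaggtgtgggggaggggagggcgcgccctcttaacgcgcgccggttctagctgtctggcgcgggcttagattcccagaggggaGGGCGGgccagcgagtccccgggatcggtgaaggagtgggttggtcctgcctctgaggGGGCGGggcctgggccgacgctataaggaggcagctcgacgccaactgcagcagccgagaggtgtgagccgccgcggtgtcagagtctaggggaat
Cdkn1b, chr6:134920151-134920450, plus strand: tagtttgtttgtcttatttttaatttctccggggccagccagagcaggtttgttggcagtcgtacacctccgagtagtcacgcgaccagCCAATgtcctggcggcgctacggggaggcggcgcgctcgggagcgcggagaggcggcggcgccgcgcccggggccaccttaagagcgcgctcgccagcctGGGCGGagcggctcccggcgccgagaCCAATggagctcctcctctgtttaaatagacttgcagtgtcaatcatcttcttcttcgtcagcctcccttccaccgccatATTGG
The Cdk4 window held 4 E-boxes, at -172, -118, -98 and -11 from the start site, and 3 GC boxes, of which the last 2 overlap. At least 1 E-box is found in 7.15% of the 32851 mouse windows of this length, and at least 4 in 8 of them (0.0244%). The Cdkn1a window, 1 of 2 for that gene, held 2 GC boxes, at -104 and -46, a motif found in 35.7% of windows. The Cdkn1b window held 3 CCAAT boxes, at -161, -35 and 45, and 1 GC box at -61. A CCAAT box is found in 37.4% of windows. None of these 3 windows held the E2F letters TTTCCCGC (1.07% of windows), TTTGGCGC (0.514%) or TTTCGCGC (0.323%), nor the STAT letters TTCNNNGAA (8.30%). The matches are descriptions of sequence and say nothing about binding in these cells.

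Ccnd2 was the only D cyclin called lower after challenge over the whole HSPC-like class and over the whole neutrophil progenitor-like class. Ccnd1 and Ccnd3 also had lower levels after challenge in HSPC-like cells, without a call. In the HSPC-like cells it stood at 318 CPM (95% Poisson interval 306 to 331) unchallenged, 195 (188 to 202) challenged once and 140.1 (132 to 148) challenged 2 times, and the 3 intervals did not overlap. The level was 1.63-fold lower (1.55 to 1.72) after 1 challenge, a log2 ratio of -0.68, and Ccnd2 was then the only one of the 9 genes called lower, where 0.961% of 9363 measured genes were. That call ended, at -0.57, when doublet calls were kept and, also at -0.57, when each cell was thinned to 2000 UMIs. After 2 challenges Ccnd2 was 2.27-fold lower than unchallenged (2.12 to 2.44), a log2 ratio of -1.13. It was again the only member called lower, 1 of 8 measured, where 10.8% of 8602 genes were, so the count was near that share. The order held within each cluster: 302, 189 and 122 CPM in cluster 4 and 349, 205 and 156 CPM in cluster 12. Between 1 and 2 challenges the difference was 1.39-fold and not called.

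The share of HSPC-like cells with a Ccnd2 UMI followed the same order at equal depth. After thinning to 2000 UMIs it was 44.8%, 33.8% and 25.6% of 779, 1158 and 864 cells. At full depth it was 86.3%, 81.4% and 59.9%. In mature neutrophil-like cells, a class at the low end for this gene, the thinned share was 1.87%, 3.72% and 1.76%.

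Neutrophil progenitor-like cells repeated the order for Ccnd2 at a lower level. The values were 122 CPM (115 to 128), 97.2 (93.6 to 101) and 51.8 (49.0 to 54.7), without overlap. After 2 challenges the level was 2.35-fold lower than unchallenged (2.18 to 2.54), a log2 ratio of -1.09. Ccnd2 was the only member called lower, 1 of 7 measured, where 6% of 8870 genes were. Against 1 challenge it was 1.88-fold lower, a log2 ratio of -0.80. The more Ccnd2-rich cluster 1 had 144, 109 and 68.4 CPM, and cluster 9 had 77.7, 49.8 and 25.3 CPM, so both held the order.

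Ccnd3, the D cyclin of lymphocytes and maturing blood cells, differed less between libraries in these classes. In HSPC-like cells it stood at 142 CPM (134 to 151), 132 (126 to 138) and 108 (101 to 115), and it was not called in any comparison. Cluster 4 had 141, 129.6 and 101 CPM and cluster 12 had 144, 136 and 114 CPM. It stood at 101, 119.8 and 88.0 CPM in neutrophil progenitor-like cells, also without a call. In that class cluster 1 had 81.6, 102 and 60.9 CPM and cluster 9 had 141, 196 and 131 CPM. Within cluster 1 alone it was called lower after 2 challenges against 1, at -0.65. Its level was below unchallenged in 12 of 12 classes measured after 2 challenges, with total-UMI and with median-of-ratios scaling. How many of all genes did the same is not given. The number of Ccnd3 UMIs per Ccnd2 UMI in HSPC-like cells was 0.448, 0.677 and 0.772, and in neutrophil progenitor-like cells 0.834, 1.23 and 1.70. The mix of these cyclins stood further toward Ccnd3 with each step in the latter. In HSPC-like cells the intervals after 1 and 2 challenges, 0.641 to 0.716 and 0.706 to 0.843, overlapped, and both lay above unchallenged (0.417 to 0.480).

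Ccnd1, the D cyclin best known from epithelial tissues, was low in HSPC-like cells, at 26.0 CPM (22.5 to 29.8), 18.5 (16.5 to 20.8) and 14.7 (12.2 to 17.5). The unchallenged level lay above both challenged ones, but not with each cell thinned to 2000 UMIs, where the log2 ratios to unchallenged were 0.11 and 0.04. Without thinning the ratio after 2 challenges was 0.565 (0.447 to 0.710), which is 1.77-fold lower, but with 10 CPM added the log2 ratio was -0.55 and not called. With 1 CPM added it was called, at -0.78. The gene was concentrated in the Flt3 and Dntt cluster 12, at 46.6, 23.4 and 19.9 CPM against 15.5, 15.8 and 8.48 CPM in cluster 4. Within cluster 12 alone the gene was called lower after 1 challenge (-0.76) and after 2 (-0.92) against none. The excess of cluster 12 over cluster 4 was 3.01-fold (2.26 to 4.02), 1.48-fold (1.17 to 1.87) and 2.35-fold (1.55 to 3.64). Only 8, 7 and 3 UMIs of Ccnd1 were counted in neutrophil progenitor-like cells.

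Cdk4, the kinase that pairs with D cyclins in most dividing cells, was lower after 2 challenges than after 1 in both classes. In HSPC-like cells it stood at 322 CPM (310.05 to 335), 419 (409 to 429) and 253 (242 to 264), without overlap. The level after 1 challenge was 1.30-fold (1.24 to 1.36) the unchallenged one, a log2 ratio of 0.37 and no call. The level after 2 challenges was 1.65-fold lower than after 1, a log2 ratio of -0.70. Cdk4 was the only member called lower there, 1 of 8 measured, where 11.1% of 9333 genes were, so the count was near that share. Median-of-ratios scaling ended that call, at -0.54. Within clusters the values were 294, 395 and 249 CPM in cluster 4 and 378, 460 and 256 CPM in cluster 12, and both had their highest value after 1 challenge.

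Neutrophil progenitor-like cells had Cdk4 at 254, 319 and 167 CPM. Cluster 1 had 268, 346 and 206 CPM, with its highest value after 1 challenge, while cluster 9 had 226, 210 and 106 CPM, where the first 2 did not differ beyond counting error (ratio 0.93, 0.85 to 1.01). Over the class the ratio of 2 challenges to 1 was 0.524 (0.505 to 0.544), 1.91-fold lower (1.84 to 1.98) and a log2 ratio of -0.89. Both clusters kept this call, at -0.72 and -0.92, and cluster 9 was also called lower against unchallenged, at -1.03. Cdk4 and Ccnd2 were the 2 members, of 7 measured, called lower over the class after 2 challenges against 1, where 9.77% of 9385 genes were. Across all classes with enough UMIs, Cdk4 was lower after 2 challenges than after 1 in 11 of 11, also with median-of-ratios scaling. The share of all genes lower in every class is not given. A limit of counting applies: 47 of the 270 31-base words in the last 300 bases of Cdk4 (17.4%) also occur in other annotated genes, against 0 for each of the other 8 genes.

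Cdk6, the other D cyclin partner, had the opposite position in the library challenged 2 times. HSPC-like cells had 351 CPM (338 to 364), 338 (329 to 347) and 478 (463 to 493), so that the last stood clear of the other two. The ratio to unchallenged was 1.36 (1.30 to 1.43), a log2 ratio of 0.44, under the fold needed for a call. Median-of-ratios scaling brought it past that fold, at 0.64. Against 1 challenge Cdk6 was also not called over the class, but it was with that scaling (0.655) and within cluster 4 alone (0.62). Cluster 4 had 335, 321 and 499 CPM and cluster 12 had 382, 367 and 460 CPM. Neutrophil progenitor-like cells had Cdk6 at 256, 248 and 238 CPM, within 1.5-fold throughout, with 264, 257 and 254 CPM in cluster 1 and 239, 212 and 211 CPM in cluster 9.

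Cdkn1a was the inhibitor with the highest ratio after 2 challenges over the HSPC-like class as a whole. HSPC-like cells had 33.2 CPM (29.4 to 37.5) unchallenged, 33.9 (31.1 to 36.8) challenged once and 78.5 (72.6 to 84.9) challenged 2 times. The first 2 intervals overlapped and the last stood apart. After 2 challenges the level was 2.36-fold (2.04 to 2.74) the unchallenged one, a log2 ratio of 1.03, where 2.28% of 8602 genes were called higher. Against 1 challenge it was 2.32-fold (2.07 to 2.60), a log2 ratio of 1.01, where 2.6% of 9333 genes were called higher.

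The Cdkn1a difference was seen in both clusters, at 31.4, 31.2 and 58.6 CPM in cluster 4 and 36.9, 38.6 and 95.6 CPM in cluster 12. It ended with finer clustering: at Leiden resolution 2 the log2 ratio to unchallenged was 0.42 and not called, while the other settings gave 0.72 to 1.22. At that resolution the HSPC-like class was drawn otherwise. It held a cluster of 16, 24 and 490 cells with 12 of 12 markers. It also held a cluster of 215, 628 and 412 cells with only 4 of 12. The part of these cells in the lost call was not tested. At equal depth 5.91%, 7.17% and 12.96% of HSPC-like cells had a Cdkn1a UMI, against 22.5%, 28.6% and 37.2% at full depth. In mature neutrophil-like cells, which gave 3, 9 and 8 UMIs of the gene in all, the thinned shares were 0.17%, 0.86% and 0.44%.

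Neutrophil progenitor-like cells had far less Cdkn1a, at 4.07, 4.13 and 3.48 CPM. That was 8.18-fold (5.98 to 11.4), 8.19-fold (6.70 to 10.1) and 22.6-fold (18.0 to 28.6) below the HSPC-like cells of the same library. Cluster 1 had 5.86, 4.64 and 4.94 CPM, and cluster 9 had 0.516, 2.00 and 1.15 CPM on 2, 11 and 11 UMIs. No difference between libraries was called in this class.

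Cdkn1b was higher after 2 challenges in both classes and in every class where it could be measured. HSPC-like cells had 23.8 CPM (20.6 to 27.5), 20.7 (18.5 to 23.0) and 36.3 (32.3 to 40.6), with the last above the others. The ratio of 2 challenges to 1 was 1.76 (1.497 to 2.06), a log2 ratio of 0.59, so Cdkn1b joined Cdkn1a as the 2 members called higher. Cluster 4 had 26.1, 20.95 and 39.5 CPM and cluster 12 had 19.4, 20.1 and 33.5 CPM. This call sat at the edge of the fold: it ended in cluster 12 alone, at 0.53, and at most 5% mitochondrial UMIs per cell, at 0.52. Against unchallenged the ratio was 1.52 (1.27 to 1.84), a log2 ratio of 0.45 and no call, but it was called with median-of-ratios scaling (0.61), with 1 CPM added (0.59) and with thinning (0.61).

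In neutrophil progenitor-like cells Cdkn1b stood at 7.61 CPM (6.11 to 9.38), 8.83 (7.77 to 9.99) and 16.0 (14.5 to 17.7). The last was 2.10-fold the first (1.67 to 2.68), a log2 ratio of 0.56, short of a call at these low levels with 10 CPM added. No member was called higher in that class, against 2.14% of genes for 2 challenges over none and 1.42% for 2 over 1. Both of its clusters had the same step, with 6.77, 8.55 and 16.1 CPM in cluster 1 and 9.29, 9.99 and 16.0 CPM in cluster 9. Over all classes, Cdkn1b after 2 challenges was above unchallenged in 10 of 10 and above 1 challenge in 11 of 11, with both scalings. These classes share the same libraries, and the share of all genes higher in every class is not given. Other members were mixed over the classes. By total UMIs after 2 challenges against none, Ccnd2 was lower in 7 of 11 and higher in 4. Cdk6 was then higher in 7 of 12 and lower in 5, and Cdkn1a was higher in 2 of 6 and lower in 4. Median-of-ratios scaling left Ccnd2 at the same counts. With it Cdk6 was higher in 9 of 12 and lower in 3, and Cdkn1a higher in 3 of 6 and lower in 3.

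Cdkn1c, an imprinted gene and a marker of resting stem cells, was rare. It gave 48, 60 and 19 UMIs in HSPC-like cells, or 6.02 CPM (4.44 to 7.98), 3.72 (2.84 to 4.79) and 2.32 (1.40 to 3.62). The first and last intervals did not overlap, and the ratio of the last to the first was 0.385 (0.214 to 0.668), but the pair had fewer than 100 UMIs and could not be called. Nearly all of it was in cluster 4, the cluster led by Hlf and Meis1, at 8.32, 5.55 and 4.51 CPM against 1.49, 0.512 and 0.453 CPM in cluster 12. The ratio of cluster 4 to cluster 12 was 5.58 (2.03 to 21.4), 10.9 (3.53 to 54.2) and 9.94 (2.36 to 88.7), resting on 4, 3 and 2 UMIs in cluster 12. The share of cluster 4 cells in the class (72.1%, 68.1% and 49.6%) was lower in the same order as the class level, and its part was not tested. Within cluster 4 the intervals without challenge and after 2 challenges, 6.04 to 11.2 and 2.62 to 7.21 CPM, overlapped.

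Cdkn2c, the p18 inhibitor, hardly differed between libraries in HSPC-like cells, at 19.8, 18.7 and 21.3 CPM. It was higher in cluster 12 than in cluster 4 by 1.53-fold, 1.82-fold and 1.62-fold. The levels were 16.8, 14.4 and 15.9 CPM in cluster 4 and 25.7, 26.3 and 25.8 CPM in cluster 12. Neutrophil progenitor-like cells had 8.56, 9.11 and 11.0 CPM, again without a call, with 8.20, 8.33 and 9.74 CPM in cluster 1 and 9.29, 12.4 and 12.9 CPM in cluster 9.

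**Figure D1:**
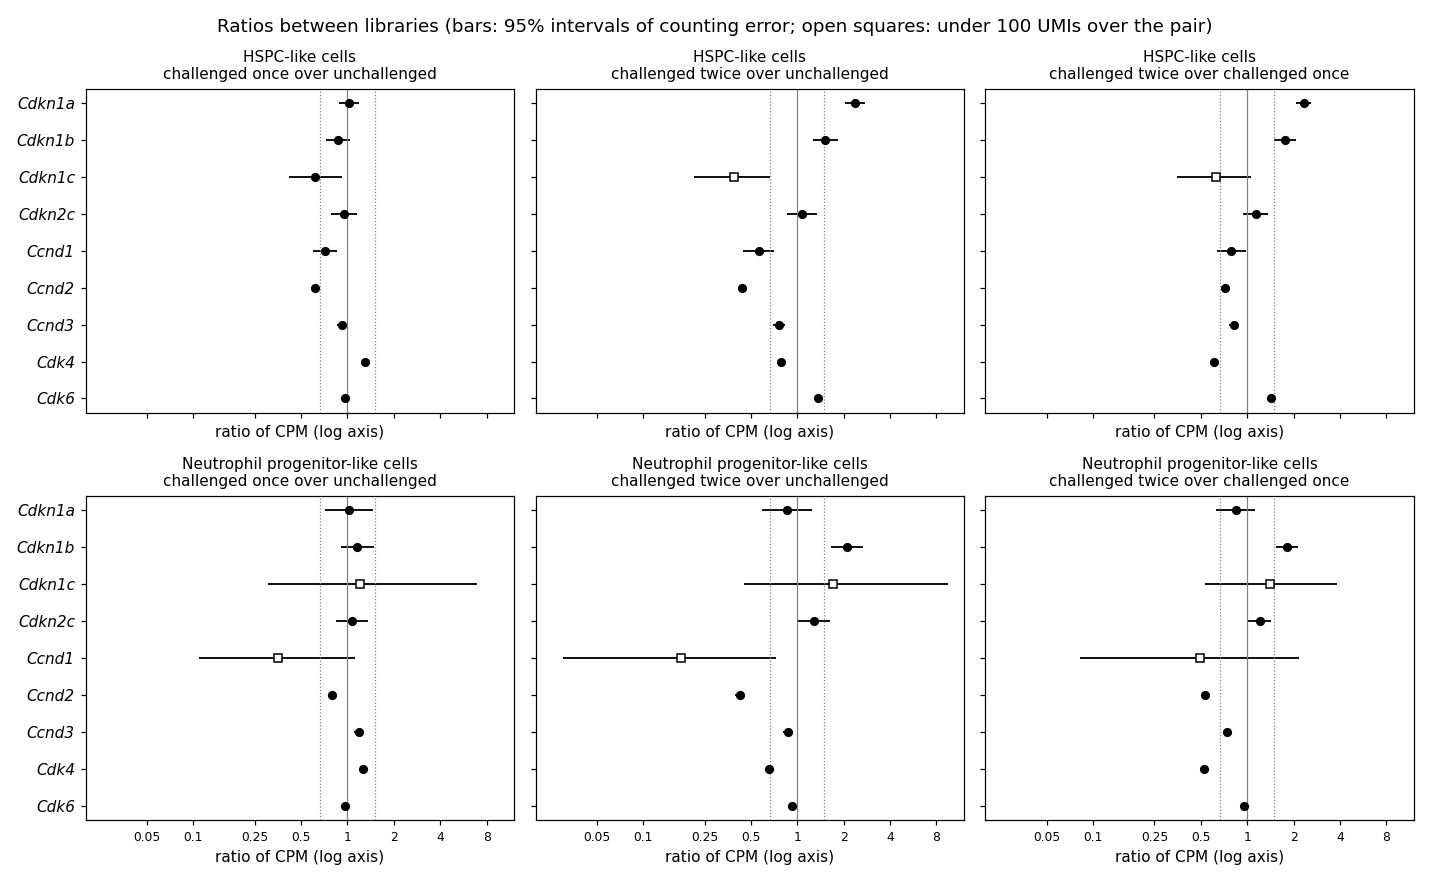
Ratio of CPM (horizontal log axis, nothing added) of the 9 genes (vertical axis) in HSPC-like (top) and neutrophil progenitor-like cells (bottom) for the 3 pairs of libraries, with 95% intervals of counting error, a solid line at 1 and dotted lines at 1.5-fold; open squares had under 100 UMIs over the pair. In HSPC-like cells Ccnd2 lies at 0.613 and 0.441 of unchallenged after 1 and 2 challenges, and Cdkn1a at 2.36 after 2 challenges.

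The members had no common direction. In HSPC-like cells the median log2 ratio over those measured (9, 8 and 8, since Cdkn1c had too few UMIs in the last 2 pairs) was -0.10 for 1 challenge over none, -0.14 for 2 over none and -0.04 for 2 over 1, against -0.02, -0.14 and -0.10 over all measured genes. No member was called higher after 1 challenge in HSPC-like cells (0.459% of genes were), and none in either direction in neutrophil progenitor-like cells (2.05% higher and 1.2% lower). Scaling matters for the balance. Log2 ratios by total UMIs differed from those by median-of-ratios scaling by -0.03, -0.21 and -0.17 in HSPC-like cells and by 0.10, -0.14 and -0.21 in neutrophil progenitor-like cells for the same 3 pairs. With the latter scaling, the share of called genes that were higher went from 17.5% to 49.1% for 2 challenges over none in HSPC-like cells, from 19.0% to 44.1% for 2 over 1, and in neutrophil progenitor-like cells from 63.1% to 38.6%, 26.3% to 53.3% and 12.7% to 42.3%.

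Across the marrow the members were highest in several classes. B lineage-like cells led for Cdkn1b and Cdkn2c in all 3 libraries and for Ccnd3 in 2. Ccnd1 was highest in dendritic cell-like cells, at 137.9, 165.4 and 96.2 CPM, ahead of HSPC-like cells in every library. It was at 0 in the class of T, NK or innate lymphoid cells, which allows up to 6.49, 3.25 and 1.96 CPM by a floor of 3 counts. Ccnd2 was high in megakaryocyte-like cells, at 335.6, 278.9 and 249.5 CPM, next to HSPC-like cells, whose unchallenged interval overlapped, and was topped only by 431.1 CPM in the plasma cell-like cells challenged once. Its lowest values were 7.9, 9.0 and 1.9 CPM in immature neutrophil-like cells and 8.8, 16.1 and 12.04 CPM in mature ones.

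Ccnd3 had another order, only weakly opposed to that of Ccnd2 (Spearman rho -0.25 over 41 pairs of class and library). B lineage-like cells (587.5, 465.9 and 427.8 CPM) and mature neutrophil-like cells (402, 474.4 and 276.9 CPM) were at the top, and their intervals overlapped after 1 challenge. The unnamed cluster 6 was lowest at 95.3, 100.1 and 60.6 CPM. That cluster had 3 of 8 eosinophil markers but 2 HSPC markers, Cd34 and Adgrl4, among its top 10 genes, and was therefore not named. It held 274, 706 and 585 cells. Ccnd3 UMIs per Ccnd2 UMI ranged from under 1 in HSPC-like and megakaryocyte-like cells (0.505, 0.629 and 0.504 in the latter) to 8.57, 5.83 and 2.90 in B lineage-like cells and 45.0, 47.9 and 127 in immature neutrophil-like cells.

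Cdk4 was highest in erythroid-like cells, at 489.4, 455.5 and 304.1 CPM, with the unnamed cluster 6 beside them after 1 challenge (443.6 CPM, overlapping interval), and lowest in mature neutrophil-like cells, at 25.8, 19.6 and 7.3 CPM. Cdk6 was highest in megakaryocyte-like cells (408.3, 447.8 and 602.1 CPM) after challenge, and level with basophil or mast cell-like cells (413.5 CPM) in the unchallenged library. Mature neutrophil-like cells were again lowest, at 21.5, 22.0 and 18.1 CPM.

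The inhibitors divided the classes otherwise. Cdkn1a was high in the T, NK or innate lymphoid class (67.0, 69.4 and 26.8 CPM), B lineage-like cells (55.2, 40.0 and 49.2 CPM) and HSPC-like cells, which led in the library challenged 2 times. Erythroid-like cells were near the bottom with 1.2, 2.7 and 2.4 CPM. Cdkn1b was highest in B lineage-like cells (68.9, 87.5 and 112.5 CPM), then in mature neutrophil-like cells after challenge (67.8 and 86.8 CPM, from 37.9 unchallenged). Cdkn2c was highest in B lineage-like cells (90.3, 75.3 and 60.3 CPM), with dendritic cell-like cells (61.8, 65.2 and 57.9 CPM) and immature neutrophil-like cells (59.6, 57.0 and 42.8 CPM) near them. Cdkn1c in B lineage-like cells (3.5, 4.3 and 2.0 CPM) could not be told from its level in HSPC-like cells, since the intervals overlapped in each library. It was at 0 in mature neutrophil-like cells, which allows up to 0.979, 1.78 and 1.29 CPM.

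**Figure D2:**
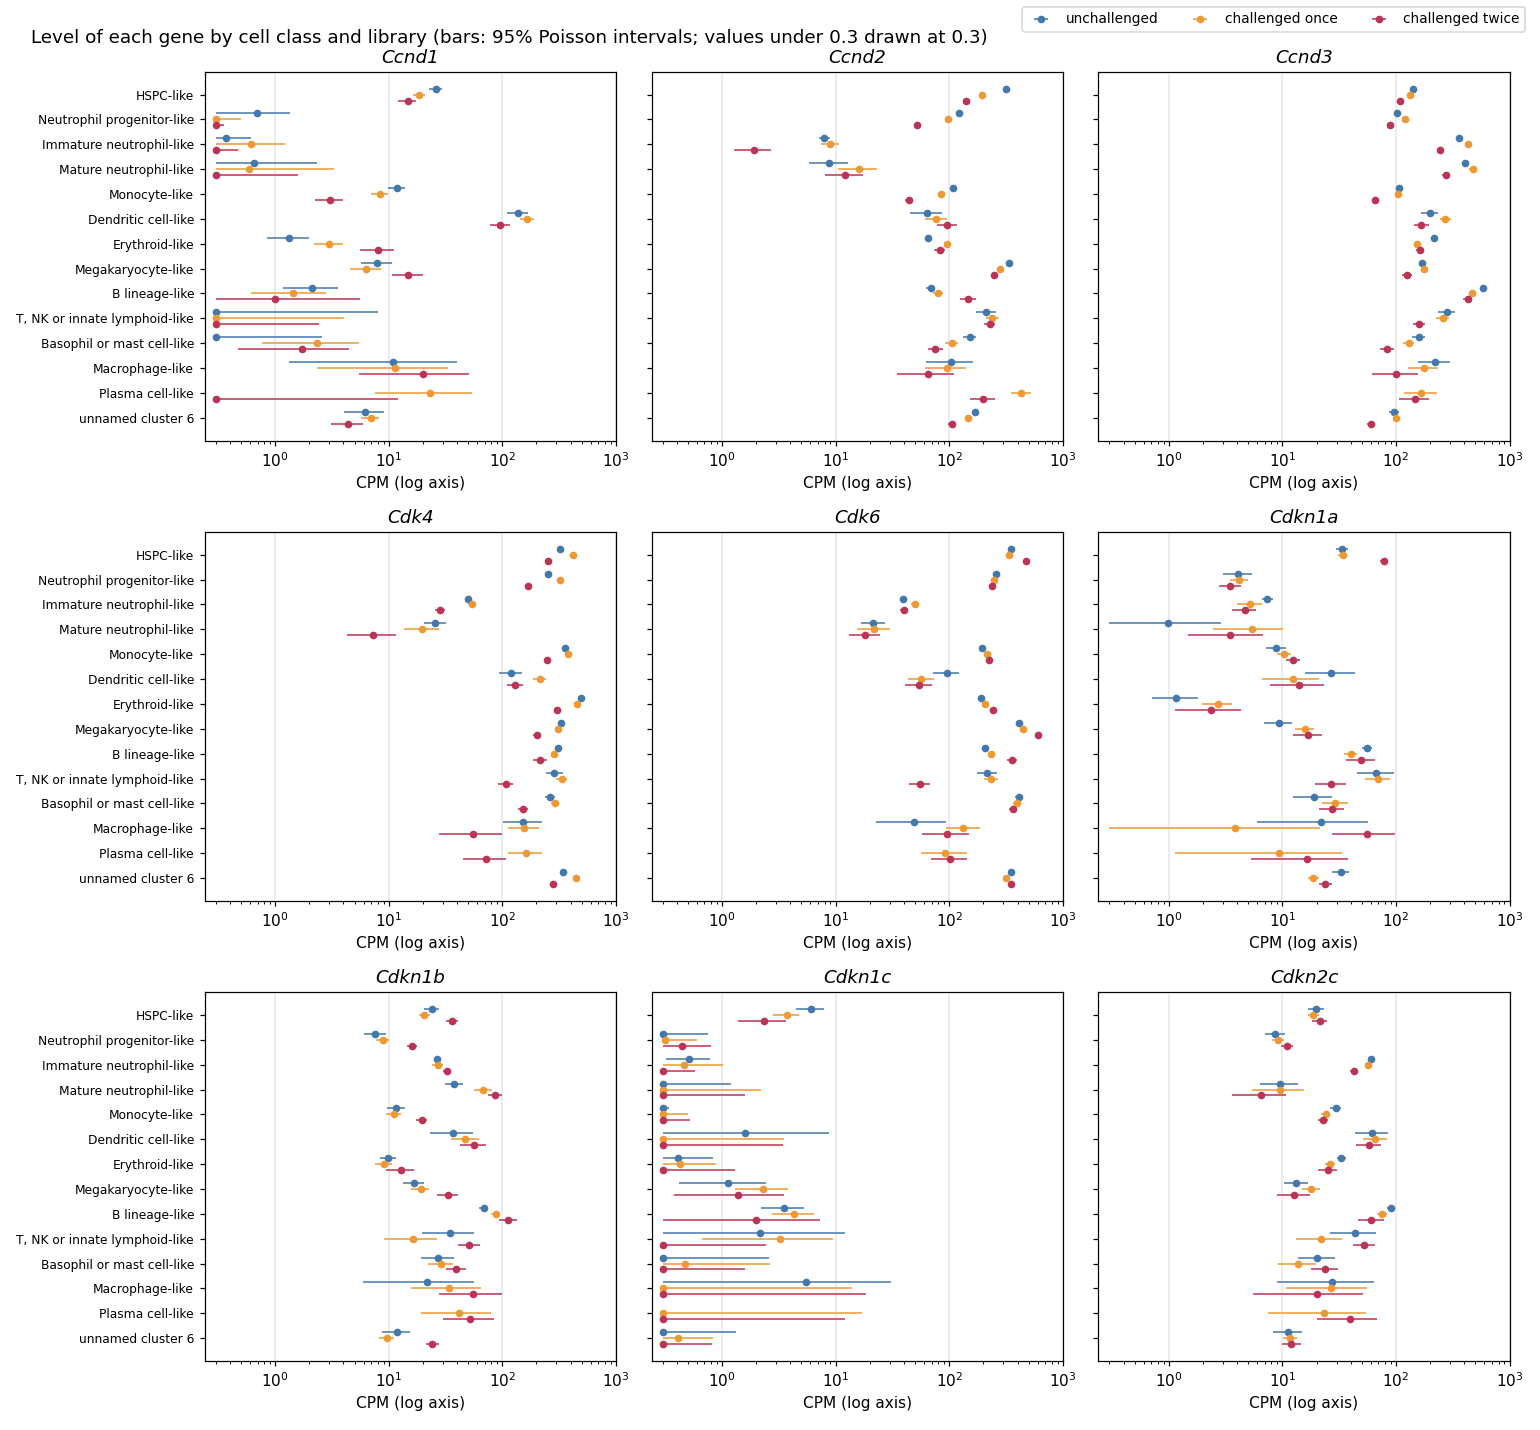
Level of each gene in CPM (horizontal log axis) by cell class (vertical axis) and library (colour), with 95% Poisson intervals as bars and values under 0.3 CPM drawn at 0.3. Ccnd1 peaks in dendritic cell-like cells, and immature neutrophil-like cells stand at 7.9 CPM of Ccnd2, near its low end, and at 357.5 CPM of Ccnd3 in the unchallenged library.

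Along the neutrophil line the genes were lost or gained at different steps. The classes are HSPC-like cells, neutrophil progenitor-like cells, immature neutrophil-like cells (3478, 1115 and 1492 cells, marked by Camp, Ngp and Ltf) and mature neutrophil-like cells (611, 500 and 713 cells, marked by Retnlg, Mmp8 and Cxcr2). Ccnd1 and Cdkn1c were left behind at the first step. Ccnd1 was 37.5-fold (18.7 to 88.1), 75.6-fold (36.2 to 190) and 121-fold (40.3 to 594) lower in neutrophil progenitor-like than in HSPC-like cells. Cdkn1c was lower by 23.2-fold (7.48 to 116), 11.8-fold (5.82 to 27.1) and 5.21-fold (2.36 to 12.1).

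Ccnd2 and both kinases were left behind at the second step. Ccnd2 was 2.61-fold, 2.00-fold and 2.71-fold lower in neutrophil progenitor-like than in HSPC-like cells, and then 15.3-fold (13.6 to 17.3), 10.8-fold (8.99 to 13.2) and 27.3-fold (18.9 to 40.9) lower again in immature neutrophil-like cells. Cdk4 was 5.05-fold, 5.88-fold and 5.89-fold lower at that step and 1.95-fold, 2.77-fold and 3.89-fold lower again in mature cells. Cdk6 was 6.52-fold, 4.95-fold and 5.91-fold lower in immature neutrophil-like than in neutrophil progenitor-like cells.

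Ccnd3, Cdkn2c and Cdkn1b were lower at the first step and higher at the second. From HSPC-like to neutrophil progenitor-like cells Cdkn1b was 3.13-fold, 2.34-fold and 2.26-fold lower. Cdkn2c was 2.31-fold, 2.06-fold and 1.94-fold lower there, and Ccnd3 1.40-fold, 1.10-fold and 1.23-fold lower. Ccnd3 was 3.53-fold (3.32 to 3.75), 3.59-fold (3.44 to 3.75) and 2.75-fold (2.60 to 2.90) higher in immature neutrophil-like than in neutrophil progenitor-like cells, and 1.12-fold, 1.10-fold and 1.15-fold higher again in mature cells. Cdkn2c was at its peak in the immature class, higher by 6.96-fold (5.69 to 8.59), 6.26-fold (5.43 to 7.24) and 3.90-fold (3.38 to 4.52) over neutrophil progenitor-like cells, and was 6.30-fold, 6.00-fold and 6.64-fold lower again in mature cells. Cdkn1b was higher at both later steps, by 3.51-fold, 3.05-fold and 2.03-fold and then by 1.42-fold, 2.52-fold and 2.66-fold. In mature neutrophil-like cells its level was 37.9, 67.8 and 86.8 CPM, so the challenged libraries stood above the unchallenged one. Both were called higher (0.70 and 1.02), with no share of all genes to set beside these calls. The class lay in different clusters by library: cluster 14, led by Il1b, held 3, 279 and 451 cells and cluster 10 held 608, 221 and 262. Within cluster 10 Cdkn1b was 37.9 (31.3 to 45.5), 45.6 (33.4 to 60.8) and 60.3 CPM (48.0 to 74.7), a smaller difference in which the first 2 intervals overlapped, and in cluster 14 it was 101 and 125 CPM after 1 and 2 challenges. The immature class was divided too, with 1817, 542 and 62 cells in cluster 0 and 45, 39 and 560 in cluster 15. The part of this make-up was not tested. Mature cells had medians of only 4667, 2706 and 2634 UMIs, and differences in CPM of 1 gene also move with the loss of other transcripts.

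**Figure D3:**
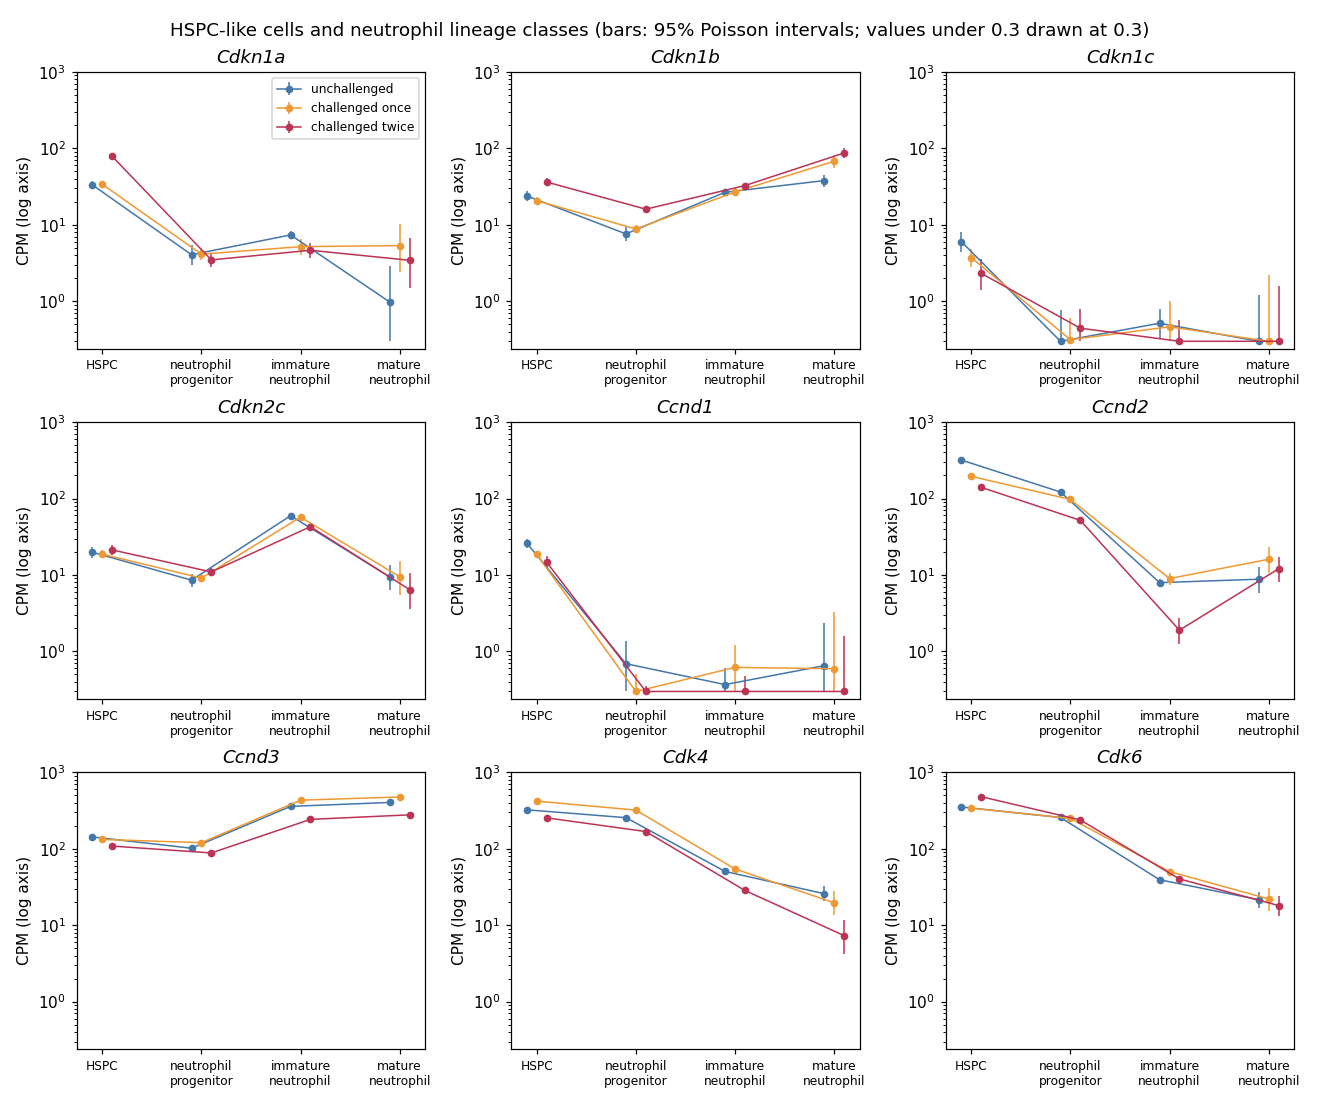
Level of each gene in CPM (vertical log axis) in 4 classes of the neutrophil line (horizontal axis) for each library (colour), with 95% Poisson intervals. Ccnd2, Cdk4 and Cdk6 stand lower in the immature than in the progenitor class, while Ccnd3, Cdkn2c and Cdkn1b stand higher there. The lines join classes and are not a time course.

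Because the members act on rest and cell cycle entry, HSPC-like cells thinned to 2000 UMIs were then divided by their UMIs of 42 cell cycle genes (22 of S phase and 20 of G2 and M phase). Cells with 6 or more such UMIs made up 35.2% (31.8 to 38.6, exact binomial), 58.8% (55.9 to 61.7) and 48.0% (44.7 to 51.4). In neutrophil progenitor-like cells the shares were 66.6%, 84.9% and 68.6%, and in mature neutrophil-like cells, a background, 1.36%, 3.72% and 2.42%. Such UMIs can also come from free RNA, so the ranges are not phases of the cycle. Cells with 0 such UMIs were few (51, 59 and 68), and cells with 0 to 2 were therefore joined as the low range, a choice made after seeing the data.

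Cdk4 was higher in the cells with the most cycle transcripts in all 3 libraries. Over the ranges 0, 1 to 2, 3 to 5 and 6 or more it stood at 196, 237, 286 and 389 CPM unchallenged, 314, 240, 314 and 455 CPM challenged once, and 118, 170, 217 and 302 CPM challenged 2 times, so the values after 1 challenge did not rise over every range. The highest range over the low range was 1.69 (1.35 to 2.12), 1.77 (1.46 to 2.16) and 1.93 (1.5004 to 2.51). Cdkn2c was higher in the highest range by 7.75-fold (1.80 to 69.8), 6.22-fold (1.59 to 53.4) and 4.26-fold (1.48 to 16.8), on 2, 2 and 4 UMIs in the low range.

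Ccnd2 leaned the other way. Its highest range over the low range was 0.85 (0.68 to 1.05), 0.68 (0.55 to 0.84) and 0.61 (0.46 to 0.81). By this split, cells with more cycle transcripts had less Ccnd2 per UMI in both challenged libraries. This did not hold beyond counting error under the alternatives. Taking only cells with 0 cycle UMIs as the low range gave 0.67 (0.47 to 1.007) and 0.69 (0.44 to 1.13) after 1 and 2 challenges. Thinning to 4000 UMIs gave 0.81 (0.65 to 1.02) and 0.77 (0.59 to 1.008). These ratios stayed below 1, but each interval included 1. The lower Ccnd2 after challenge was present within the ranges too: cells with 1 to 2 cycle UMIs had 334, 268 and 206 CPM, and cells with 6 or more had 281, 183 and 122 CPM.

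Cdkn1a after 2 challenges was not confined to a range. It stood at 58.8, 124, 74.9 and 79.5 CPM over the 4 ranges in that library, against 29.4, 43.1, 31.5 and 25.5 CPM unchallenged, and the ratio of the highest to the low range included 1 in each library. Cdk6 after 2 challenges was likewise spread, at 478, 410, 492 and 481 CPM against 265, 328, 363 and 318 CPM unchallenged. Its ratio of highest to low range excluded 1 only after 1 challenge, at 1.38 (1.13 to 1.69). The intervals for Ccnd3 and Cdkn1b included 1 in each library.

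**Figure D4:**
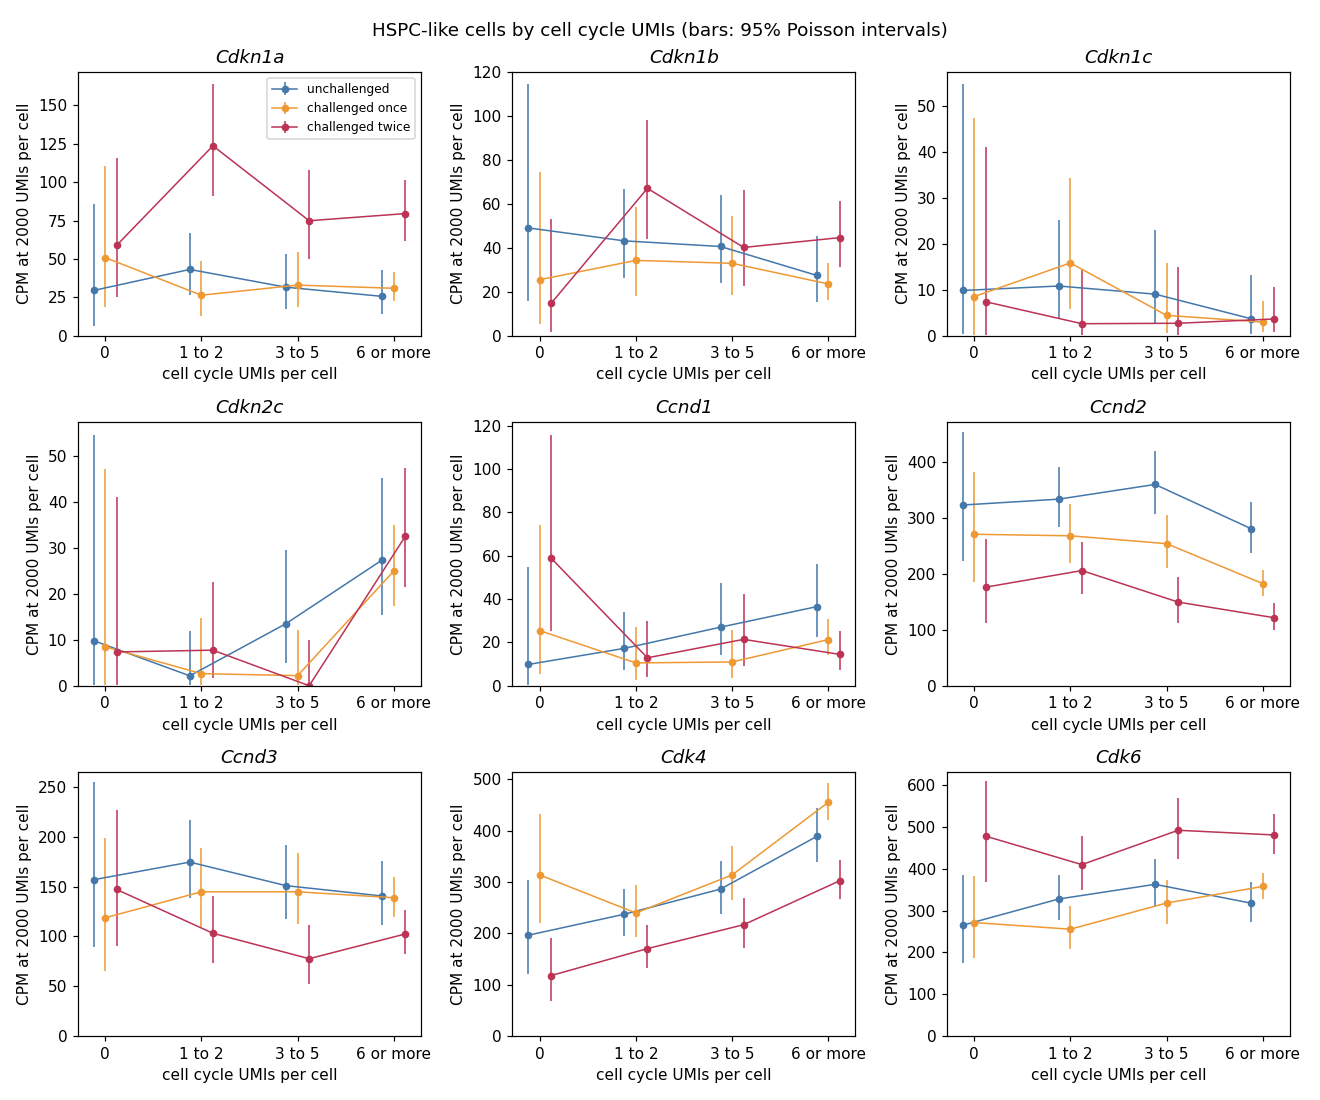
Level in thinned HSPC-like cells in CPM (vertical axis) by UMIs of 42 cell cycle genes (horizontal axis: 0, 1 to 2, 3 to 5, 6 or more) for each library (colour), with 95% Poisson intervals. Cdk4 is highest in the range of 6 or more in each library (389, 455 and 302 CPM), and the Ccnd2 values of the library challenged 2 times lie lowest in every range.

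HSPC-like cells were also divided by 9 genes of stem cells. At 2000 UMIs, 37.9%, 32.3% and 31.5% of cells had a UMI of one of them, and these cells had fewer cycle UMIs on average than the others (4.78 against 5.53, 6.07 against 7.72 and 5.49 against 6.23). Cdk6 was lower in cells with a stem gene UMI, at ratios of 0.66 (0.54 to 0.81), 0.78 (0.66 to 0.91) and 0.94 (0.80 to 1.09), the last with 1 inside its interval. Cdk4 stood at 0.82 (0.67 to 0.99), 0.69 (0.59 to 0.81) and 1.02 (0.82 to 1.26). With at least 2 stem gene UMIs the last turned to 0.59 (0.40 to 0.85), and Cdk4 was then lower with 1 outside the interval in both challenged libraries but not in the unchallenged one, at 0.80 (0.58 to 1.07). The inhibitors parted in the library challenged 2 times: Cdkn1a had a ratio of 0.54 (0.35 to 0.82) and Cdkn1b one of 1.87 (1.17 to 2.98). With at least 2 stem gene UMIs these were 0.29 (0.10 to 0.64) and 2.14 (1.204 to 3.62). Cells at that threshold had Cdkn1a at 34.7, 19.2 and 27.3 CPM over the libraries, on 7, 5 and 6 UMIs. The other cells had 32.4, 33.1 and 95.5 CPM. The higher Cdkn1a level after 2 challenges was thus not seen in the cells with at least 2 stem gene UMIs, on few counts. With at least 1 such UMI the levels were 32.2, 24.1 and 55.1 CPM. Cdkn1c gave 2.30, 1.80 and 2.18 with 1 inside each interval, on 7, 6 and 3 UMIs, and the first became 4.79 on 5 UMIs, with 1 outside its interval, with at least 2 stem gene UMIs. For Ccnd2 and Ccnd3 the intervals included 1 at both thresholds.

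The genes around these 9 gave a mixed picture of cell cycle entry. After 1 challenge in HSPC-like cells, none of the 22 S phase and 20 G2 and M phase genes was called. Their median log2 ratios were 0.24 and 0.35 against -0.02 over all genes. Of 9 measured genes for the turnover of G1 regulators, 1 was called higher, where 0.459% of 9363 genes were. It was Cdt1, which licenses replication origins, at 1.63-fold. Of 14 transcription factors upstream of G1 genes, 1 was called lower, Mycn, where 0.961% of genes were. After 2 challenges against none, 3 of 20 G2 and M phase genes were called higher, where 2.28% of 8602 genes were: Mki67 at 1.91-fold, Top2a at 1.65-fold and Kif11 at 1.82-fold. Of the S phase genes, 1 of 22 was called lower, Ung at a log2 ratio of -1.07, where 10.8% of all measured genes were. Against 1 challenge, 6 of 22 S phase genes were called lower and 0 higher, where 11.1% of 9333 genes were called lower and 2.6% higher, led by Tyms (-0.83), Fen1 (-0.80) and Gins2 (-0.71).

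The other G1 lists had few calls. Of the cyclin E and CDK-activating genes, 2 of 7 were called lower after 2 challenges against none in HSPC-like cells, Ccnh (-0.74), a subunit of the CDK-activating kinase, and Ccne2 (-0.61). Of the pocket protein and E2F genes, E2f6 (-0.90) and E2f4 were called lower in that pair, 2 of 12, and both are known as repressor E2Fs. Over all measured genes of that pair 10.8% were called lower. Cdkn2d, the INK4 gene for p19, was the only other CDK inhibitor with enough UMIs and was not called, at -0.38. In neutrophil progenitor-like cells 5 of 20 G2 and M phase genes were called higher after 1 challenge, led by Ccna2 (0.77) and Plk1 (0.73), and Ccne1, a cyclin E, was called higher at 0.62, where 2.05% of 9074 genes were.

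The p53 pathway genes around Cdkn1a were mixed in the HSPC-like cells challenged 2 times. Trp53 itself was at 82.3 CPM against 189.6 CPM after 1 challenge, a log2 ratio of -1.11. Of the 11 p53 pathway genes measured there, 3 were called lower (Trp53, Bax at -0.84 and Aen at -0.77) and 1 higher (Trp53inp1 at 0.64), where 11.1% of all measured genes were called lower and 2.6% higher. Of 14 transcription factors upstream of G1 genes, 3 were called higher in the same pair: Egr1, an immediate early gene, at 5.65-fold, Hes1, a Notch target, at 0.76, and Stat5b. Mycn, which is also 1 of the 12 markers of the class, was called lower against both other libraries and stood at a log2 ratio of -1.61 to unchallenged. In neutrophil progenitor-like cells 2 of the 9 such factors measured were called lower after 2 challenges against none, Myc at -0.77 and Cebpa at -0.72, where 6% of 8870 genes were.

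Members were called in lymphoid classes too, several of them the same ones. In B lineage-like cells (1193, 1428 and 390 cells, medians of 3617, 2758.5 and 1452 UMIs) Ccnd2 was 68.6, 79.9 and 148 CPM and Cdk6 208, 232 and 360 CPM. Both were called higher after 2 challenges against none, with Cdkn1b (0.63), where 6.81% of 6475 genes were, and against 1 challenge, where 6.55% of 6139 genes were. In the T, NK or innate lymphoid class (65, 103 and 367 cells) Cdk6 stood at 216, 234 and 55.0 CPM and Cdk4 at 288, 333 and 107 CPM. Cdk6, Cdk4 and Ccnd3 were called lower after 2 challenges, where 26.2% of 2071 genes were called lower against unchallenged and 29.1% of 2549 against 1 challenge. Cdkn2c went the other way and was called higher in that class after 2 challenges against 1. The share of genes called higher there is not given. The make-up of that class was not the same in the libraries: cluster 18, led by Gzma, Il2rb and Ccl5, held 35, 66 and 341 of its cells and cluster 23, led by T cell genes such as Tcf7 and Bcl11b, held 30, 37 and 26. Its part in the values was not tested.

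Over the 41 pairs of class and library with at least 50 cells, Cdk4 and Cdk6 had the closest pattern among the members, with Pearson r 0.82 and Spearman rho 0.59. Ccnd2 went with Cdk4 (r 0.69) and Cdk6 (r 0.66), and Ccnd2 and Ccnd3 had r -0.38. Cdkn1b went against Cdk4 (r -0.55) and with Ccnd3 (r 0.54). These points share libraries and depth, so the values are descriptions without a test. Among 4965 other genes, the closest pattern to Cdk4 was that of Serbp1 (r 0.97), to Cdk6 Serf1 (0.94), to Ccnd1 Ppfia4 (0.92), to Ccnd2 Ankrd10 (0.86) and to Ccnd3 Adprh (0.83). For the inhibitors it was Aff3 for Cdkn1a (0.86), Stk4 for Cdkn1b (0.90), Myl10 for Cdkn1c (0.80) and Mxd3 for Cdkn2c (0.86). With 1 CPM added, Aff3 was no longer among the 3 genes closest to Cdkn1a. Cdkn1c and Myl10 had a Spearman rho of only 0.61. The median level of Cdkn1c over the classes was 0.516, 0.417 and 0.187 CPM, far under the 10 CPM added. Myl10 was among the top 10 genes of cluster 12, where Cdkn1c gave 4, 3 and 2 UMIs. Cdkn2d was among the 3 genes closest to Ccnd3, and Racgap1 and Nusap1, genes of mitosis, were among the 3 closest to Cdkn2c.

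In the mm10 build (GRCm38) the genes lie on chromosome 17 (Cdkn1a, 29090976 to 29100727, and Ccnd3, 47505051 to 47599691), chromosome 6 (Cdkn1b, 134920401 to 134925513, and Ccnd2, 127125162 to 127152193), chromosome 7 (Cdkn1c, 143458339 to 143461050, and Ccnd1, 144929931 to 144939925), chromosome 4 (Cdkn2c, 109660876 to 109667189), chromosome 10 (Cdk4, 127063534 to 127067920) and chromosome 5 (Cdk6, 3341485 to 3531008). Of these genes, 7 overlap a gene on the opposite strand, among them Tspan31 at Cdk4, Bysl at Ccnd3 and LTO1 at Ccnd1. Whether the counting used strand is not given in the sources used here, so reads of such pairs may not be told apart.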

How the data were processed

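UMI counts per gene and cell, deposited as whole numbers by the authors, were used. Per the labels the libraries were made with the 10x Genomics 3' kit V2, and per the submitters' processing notes with Cell Ranger 3.0.0 on mm10. The annotation release and strand setting are not given in the sources used here. The series' design text speaks of fewer samples and of another treatment name than the sample labels, and the sample labels were followed.

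Cells needed 500 UMIs, 300 genes and at most 10% mitochondrial UMIs. Doublets were called with Scrublet in scanpy 1.11.5 (expected 6%) and left out, 4.63%, 3.40% and 3.00% of cells in the 3 libraries. Cells were clustered (Leiden 0.10.2, resolution 1, 2000 variable genes, 30 components, 15 neighbours) without the 9 genes and without cell cycle, interferon, inflammatory and immediate early genes, and named from 15 marker lists where at least 3 markers stood 2-fold above the rest. A cluster stayed unnamed where another list had at least 3 markers among its top 10 genes, or more than its own list. Macrophage-like cells were few and had medians under 2000 UMIs. Classes with under 50 cells in a library were left out there.

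UMIs were summed per class and library and scaled to CPM. Levels have exact Poisson intervals, ratios exact conditional Poisson intervals and shares exact Clopper-Pearson intervals, all at 95% and for counting error only. The script was tested on simulated data. With 1 library per group no count model such as a dispersion fit was run and no p-value is given. All 9 genes were named whatever their values, and of the other lists up to 4 measured genes with the largest absolute log2 ratio. Other genes named only as called complete a small count and were chosen after their values were seen. The 9 genes and the lists were chosen with earlier results of these data known. The closing section gives the effect of 10 planned and 3 added alternatives.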

Additional observations from a re-analysis of the deposited data

Results flagged for a closer look

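In each case below a member's log2 ratio passed 1.5-fold in opposite directions in different classes under the same pair of libraries, or marks one end of such a pair. With 1 library per group the difference between classes was not tested. Ccnd2 after 2 challenges against none was 1.0 in B lineage-like cells and -1.13 in HSPC-like cells, and against 1 challenge it was 0.81 in B lineage-like and -1.08 in plasma cell-like cells, where 24% of 521 measured genes were called lower. Cdk6 after 2 challenges against none was 0.762 in B lineage-like and -1.8 in the T, NK or innate lymphoid class, and against 1 challenge 0.609 and -1.91. Cdkn1a against 1 challenge was 1.01 in HSPC-like and -1.11 in the T, NK or innate lymphoid class.

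Several measures moved with these values, and their part was not tested. The B lineage-like class made up 13.6%, 17.1% and 4.71% of kept cells, with the lowest median depth after 2 challenges. The plasma cell-like class held 52 and 112 cells with medians of 2603 and 1186 UMIs after 1 and 2 challenges. In the T, NK or innate lymphoid class the median depth was 5641, 8111 and 3643 UMIs, and the cluster led by Gzma held 35, 66 and 341 cells.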

How the results depend on the processing

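Of the counts of members called, 136 stayed within 1.5 times under an alternative and 20 did not. Of the single values, 660 stayed within counting error, 131 did not, and 1 that was past 1.5-fold changed direction. Among all 792 single values 69 had the other sign under an alternative, 50 of them within counting error. Of the 69, 68 were short of 1.5-fold as reported. In HSPC-like cells, members lower after 1 challenge numbered 0 with doublets kept, 0 with thinning and 2 in the smaller cluster. Members higher after 2 challenges against none numbered 0 at resolution 2, 3 with median-of-ratios scaling (Cdkn1a, Cdkn1b and Cdk6), 2 with 1 CPM added and 2 with thinning, and members lower 2 with 1 CPM added (Ccnd1 and Ccnd2) and 2 in the smaller cluster. Against 1 challenge, members higher numbered 1 in the smaller cluster and 1 at most 5% mitochondrial UMIs, and members lower 0 with median-of-ratios scaling and 2 in the larger cluster. In neutrophil progenitor-like cells, members higher after 2 challenges against none numbered 1 (Cdkn1b) with median-of-ratios scaling, 1 with 1 CPM added and 1 in the larger cluster, and members lower 2 at resolution 2, 2 with 1 CPM added and 2 in the smaller cluster. Against 1 challenge, members higher numbered 1 with 1 CPM added. The causes were not tested.

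The Ccnd2 ratio after 2 challenges against none kept its call under all alternatives run, from -1.24 to -0.93 in HSPC-like and from -1.31 to -0.81 in neutrophil progenitor-like cells. The Ccnd1 log2 ratio of cells with to cells without stem gene UMIs after 1 challenge changed direction, to 0.0876, with at least 2 such UMIs, and that of Cdk4 after 2 challenges went from 0.03 to -0.72. The settings for single clusters and for 5% mitochondrial UMIs were chosen after seeing the data. No paired analysis was possible because each group held 1 library, and no library could be left out. Depth limits Cdkn1c and, in most classes, Ccnd1. Ccnd1 was measured in 4 classes for 1 challenge over none, 3 for 2 over none and 4 for 2 over 1. After 2 challenges it was called lower against none in monocyte-like cells (11.7 and 3.02 CPM unchallenged and challenged 2 times). It was also called lower against 1 challenge in dendritic cell-like cells.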
